A study of Mus musculus with 33 samples.

Results

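The genes described here encode 9 proteins of the synaptic vesicle and its release machinery: the synaptotagmins Syt1, Syt4 and Syt11, the SNARE proteins Snap25 and Vamp2, the vesicle proteins Syp and Syn1, and the vesicle GTPases Rab3a and Rab3c. They were taken by name from a given list, chosen with earlier results of these data known. Counts of calls among them are thus no independent test. All 9 were among the 14717 genes of the RNA table. P19 is 1 mouse teratocarcinoma-derived line of embryonal carcinoma cells, grown as a stand-in for the early embryo. RNA was sequenced from 15 libraries, 3 in each of 5 groups. D3RA and D6RA cells had been differentiated with 1 µM all-trans retinoic acid (RA), which leads this line towards neurons, for 3 and 6 days. D3DMSO and D6DMSO cells had received 1% dimethyl sulfoxide (DMSO) in its place, which leads it towards mesoderm and heart muscle, and were taken at the same ages. D0 cells were undifferentiated, with neither agent. The differentiating cells first formed embryoid bodies in suspension with the agent and were then moved to flasks with maintenance medium, which held serum stripped with charcoal. No group went through this culture without an agent. In comparisons with D0, the agent thus cannot be told apart from culture and time. The 3 libraries per group are described as biological replicates, with no word on separate cultures, so the p-values speak of the spread between these libraries alone, which could be technical in part. The series also holds 18 chromatin samples, which were not analysed here.

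A synaptic vesicle fuses with the presynaptic membrane when the vesicle SNARE synaptobrevin 2 (Vamp2) zips up with syntaxin and SNAP-25 on the membrane, and synaptotagmin 1 triggers the step when it binds calcium. Rab3 GTPases tether and prime vesicles, synapsins hold them in reserve, and synaptophysin is a major membrane protein of the vesicle. These genes are used as markers of maturing neurons, and several of them are also active in neuroendocrine cells.

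Total counts were 3.55 to 9.82 M per library in D3RA, 38.2 to 49.6 M in D6RA, 5.86 to 6.87 M in D3DMSO and 39.0 to 44.5 M in D6DMSO. The D0 libraries had 7.13 to 9.88 M. The D6 libraries also stand apart in content. The 11 mitochondrial genes of the table took 41.6 to 42.6% of counts in D6RA and 49.8 to 55.8% in D6DMSO, and 0 counts in the 9 libraries of D0 and D3. This difference cannot be told apart from the day wherever D6 is set against D3. Levels are counts in CPM, scaled to the library size, and were compared between groups, not between genes, since they are not per length. A level with ± is the mean and SD of 3 libraries. Each difference is a log2 fold change from limma with its SE after ±, and a gene was called at a Benjamini-Hochberg adjusted p under 0.05 over all 14717 genes.

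Marker genes moved with the groups as follows. The summed level of 13 neuronal markers, all measured and none at 0 in any group, was 1293 to 1612 CPM in D3RA and 4268 to 4522 CPM in D6RA. It was 238 to 275 CPM in D3DMSO, 109 to 114 CPM in D6DMSO and 438 to 469 CPM in D0. For 9 measured markers of neuroendocrine cells of 11 listed, the sums were 193 to 212 CPM in D3RA. They were 414 to 431 CPM in D6RA, 50.3 to 69.4 CPM in D3DMSO and 30.5 to 35.3 CPM in D6DMSO. In D0 they were 79.9 to 90.9 CPM, and none of the 9 was at 0 in any group. Cpe alone averaged 102 CPM in D3RA. With RA 7 of the 9 were called higher and 1 lower at day 3, and 8 higher and 1 lower at day 6. Pcsk1 went against the sums, with day 3 means of 12.4 CPM under DMSO and 0.609 CPM under RA. Its day 6 means were 2.58 CPM under DMSO and 0.338 CPM under RA. For 4 measured markers of undifferentiated cells of 6 listed, the sum was 0.911 to 5.48 CPM in D3RA, 0.157 to 0.492 CPM in D6RA, 510 to 1056 CPM in D3DMSO, 65.1 to 79.2 CPM in D6DMSO and 1583 to 1809 CPM in D0, so that every comparison of RA with DMSO below comes with a difference in these markers. For 8 measured muscle markers of 11 listed, the sum was 11.4 to 12.7 CPM in D6RA and 212 to 328 CPM in D6DMSO. For 4 measured glial markers of 9 listed it was 23.3 to 27.0 CPM in D3RA and 59.3 to 66.9 CPM in D3DMSO. It was 50.6 to 54.3 CPM in D6RA, 30.6 to 32.2 CPM in D6DMSO and 44.8 to 49.5 CPM in D0. Most of the D6RA sum was Mbp, which averaged 43.8 CPM there. Gene by gene, all 4 glial markers were called lower with RA at day 3. At day 6, 1 was called higher, 2 lower and 1 was not called, with a median log2 fold change of -0.35. For 5 endothelial markers the sum was 142 to 198 CPM in D3RA and 34.1 to 63.8 CPM in D3DMSO, and 18.5 to 26.6 CPM in D6RA and 142 to 167 CPM in D6DMSO. Kdr alone averaged 124 CPM in D6DMSO and 8.64 CPM in D6RA. Of the 5, 4 were called higher with RA at day 3 and 1 was not called. At day 6, 3 were called lower and 2 were not called. The shares called over all genes are in the next paragraph. For 4 measured markers of neural progenitors of 5 listed the sum was 776 to 861 CPM in D3RA and 173 to 204 CPM in D3DMSO. At day 6 the progenitor sum was 1017 to 1037 CPM in D6RA and 134 to 150 CPM in D6DMSO. In bulk RNA, more cells of a type and more RNA per cell cannot be told apart, and the part of these cell types in the results below was not tested.

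Of the 9 genes, 7 were higher with RA than with DMSO at day 3 and all 9 at day 6. In D6RA against D6DMSO all 9 genes rose, where 32.6% of all genes tested were called higher and 33.1% lower. In D3RA against D3DMSO 7 of 9 rose and none was called lower, where 30.7% of all genes were called higher and 31.4% lower. Syn1 and Vamp2 were not called at day 3. The median log2 fold change of the 9 genes was 3.93 at day 6 and 2.07 at day 3, against -0.02 at day 6 and -0.01 at day 3 over all genes.

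**Figure D1:**
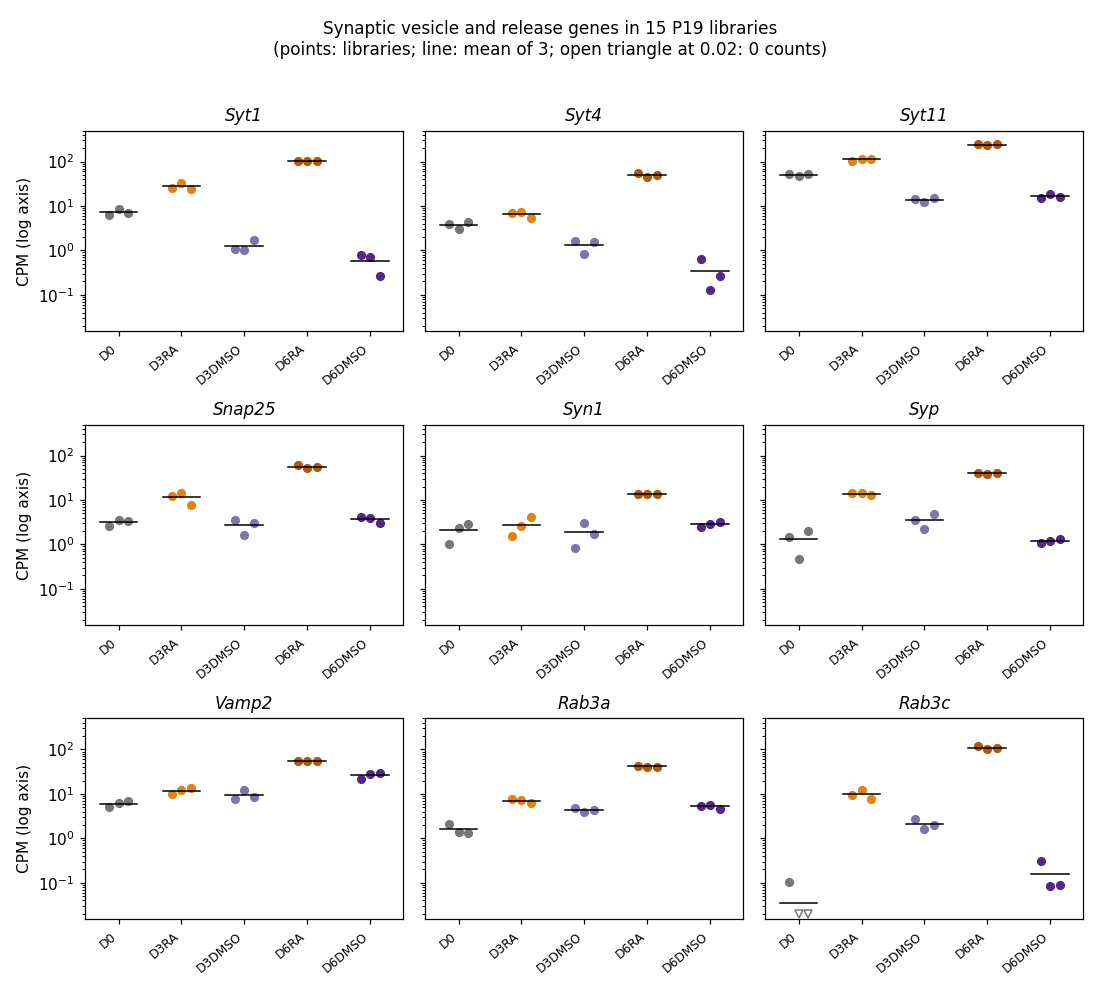
Level of each of the 9 genes in CPM on a log axis (one panel per gene). Points are the 15 libraries, grouped as D0, D3RA, D3DMSO, D6RA and D6DMSO, lines are means of 3 libraries, and open triangles mark libraries with 0 counts. In every panel the 3 D6RA libraries lie above all other libraries, and Rab3c had 0 counts in 2 of the 3 D0 libraries.

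Syt1 encodes synaptotagmin 1, the calcium sensor of fast transmitter release. It was at 25.2, 33.5 and 24.2 CPM in D3RA, against 1.10, 1.03 and 1.70 CPM in D3DMSO. At day 6 it was at 105.9, 105.9 and 100.9 CPM in D6RA, against 0.789, 0.714 and 0.263 CPM in D6DMSO. The groups did not overlap at either day, and RA raised Syt1 relative to DMSO by 4.37 ± 0.30 on the log2 scale at day 3 (adjusted p = 2.32e-09) and by 7.56 ± 0.30 at day 6 (adjusted p = 1.27e-12). D0 libraries stood between the treatments, at 6.36, 8.65 and 7.09 CPM. From that level Syt1 rose in D3RA (log2 1.90 ± 0.30, adjusted p = 3.31e-05) and fell in D3DMSO (log2 -2.47 ± 0.30, adjusted p = 3.60e-06). The order of the groups was D6RA, D3RA, D0, D3DMSO and D6DMSO, with no overlap between neighbours.

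Syt4 encodes synaptotagmin 4, a family member found on dense-core and transport vesicles of neurons and secretory cells. Its levels were 7.01, 7.17 and 5.48 CPM in D3RA, against 1.66, 0.821 and 1.55 CPM in D3DMSO. At day 6 they were 56.3, 46.2 and 51.3 CPM in D6RA, against 0.658, 0.126 and 0.263 CPM in D6DMSO. The order of the groups was the same as for Syt1, again with no overlap between neighbours. The log2 fold change of RA over DMSO was 2.28 ± 0.40 at day 3 (adjusted p = 0.000104) and 7.39 ± 0.40 at day 6 (adjusted p = 5.12e-11). The D0 libraries had 3.90, 2.99 and 4.35 CPM. The D3RA libraries all lay above these, yet the difference was not called (log2 0.82, 95% interval -0.02 to 1.67, adjusted p = 0.0763). It was called in 5 of 16 alternatives, with voom weights for instance (adjusted p = 0.0174), and the adjusted p ran from 0.0105 to 0.353. In D3DMSO Syt4 fell relative to D0 by 1.45 on the log2 scale (± 0.40, adjusted p = 0.00531). On thinning all libraries to the depth of the smallest, the log2 fold change was -3.48 in D3DMSO against D0 and 4.16 in D3RA against D3DMSO.

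Syt11 encodes synaptotagmin 11, which does not bind calcium and acts in membrane retrieval and trafficking. It stood at 106.0, 117.6 and 112.8 CPM in D3RA, against 14.6, 12.3 and 14.9 CPM in D3DMSO. It was at 245.6, 240.7 and 243.4 CPM in D6RA, against 15.4, 18.6 and 15.7 CPM in D6DMSO. Its spread between libraries was small, and the log2 fold change of RA over DMSO was 3.00 ± 0.09 at day 3 and 3.88 ± 0.09 at day 6 (adjusted p = 8.38e-14 and 1.34e-15). Undifferentiated D0 cells already had 52.8, 48.0 and 52.9 CPM, a level above which Syt11 rose in D3RA (log2 1.13 ± 0.09, adjusted p = 8.59e-09) and below which it fell in D3DMSO (log2 -1.87 ± 0.09, adjusted p = 5.21e-11). All 3 synaptotagmins were lower in D3DMSO than in D0.

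Of the other synaptotagmins, 8 were measured. In D6RA against D6DMSO 7 were called higher and 0 lower, where 32.6% of all genes were called higher and 33.1% lower. Syt9 was not called. At day 3 the same family had 3 higher and 2 lower in D3RA than in D3DMSO. These counts are not far from the shares over all genes (30.7% higher and 31.4% lower). Syt5 was lower with RA at day 3 (log2 -1.46 ± 0.34) and higher at day 6 (3.54 ± 0.34). It stood at 8.56 ± 0.70 CPM in D6RA and 0.719 ± 0.094 CPM in D6DMSO (SD, n = 3 each). Syt7, a slow high-affinity calcium sensor, rose with RA relative to DMSO at both days (log2 1.52 ± 0.22 at day 3 and 2.01 ± 0.22 at day 6). It was at 26.5 ± 1.4 CPM in D6RA and 29.6 ± 0.54 CPM in D0, which were not compared by a test.

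Snap25 encodes SNAP-25, the plasma-membrane SNARE of neurons. It was at 12.4, 14.3 and 7.76 CPM in D3RA, against 3.45, 1.64 and 3.10 CPM in D3DMSO. Day 6 levels were 60.5, 52.9 and 54.4 CPM in D6RA, against 4.08, 3.91 and 3.02 CPM in D6DMSO. All RA libraries lay above all DMSO libraries of the same day, by 2.07 ± 0.26 on the log2 scale at day 3 (adjusted p = 2.55e-06) and 3.93 ± 0.26 at day 6 (adjusted p = 5.76e-10). The D0 libraries had 2.56, 3.46 and 3.31 CPM and overlapped those of both DMSO groups. Neither D3DMSO against D0 (log2 -0.22, 95% interval -0.76 to 0.32, adjusted p = 0.477) nor D6DMSO against D3DMSO (0.44, -0.10 to 0.98, adjusted p = 0.151) was called.

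Vamp2 encodes synaptobrevin 2, the vesicle SNARE, and of the 9 genes it had the smallest treatment difference at both days in these fits. Its levels were 9.93, 12.1 and 13.7 CPM in D3RA, against 7.59, 12.3 and 8.52 CPM in D3DMSO, and the groups overlapped. The day 3 difference was not called (log2 0.35, 95% interval -0.03 to 0.73, adjusted p = 0.1). It was called in 3 of 16 alternatives: without D3DMSO replicate 2 (log2 0.56, adjusted p = 0.0104), without D3RA replicate 1 (0.48, 0.0424) and with a replicate block (0.35, 0.0390). Over the 16 the adjusted p ran from 0.0104 to 0.760. At day 6 Vamp2 was at 54.4, 55.2 and 55.1 CPM in D6RA, against 21.3, 27.5 and 29.1 CPM in D6DMSO. That 2.11-fold difference of the means was called (log2 1.09 ± 0.18, adjusted p = 4.39e-05). Vamp2 also climbed along the DMSO route, since D6DMSO exceeded D3DMSO (log2 1.46 ± 0.18, adjusted p = 4.09e-06) and D3DMSO exceeded D0, where the libraries had 5.03, 6.29 and 6.81 CPM (log2 0.63 ± 0.18, adjusted p = 0.00697). The call against D0 was lost with voom weights (adjusted p = 0.0524) and on thinning (0.107), and over 16 alternatives the adjusted p ran from 0.00125 to 0.107.

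Several relatives of these SNAREs went the other way at day 6. Snap23, the SNAP-25 relative of non-neuronal cells, was at 23.4 ± 2.4 CPM in D6RA and 48.5 ± 1.8 CPM in D6DMSO (SD, n = 3 each). It fell with RA by 1.06 on the log2 scale (± 0.11, adjusted p = 1.4e-07). Vamp3 (cellubrevin) fell to 31.9 ± 1.7 CPM in D6RA, against 59.6 ± 1.3 CPM in D6DMSO (log2 -0.90 ± 0.08), and Vamp8, a SNARE of endosomes and lysosomes, to 1.92 ± 0.072 CPM in D6RA, against 13.4 ± 1.2 CPM in D6DMSO (log2 -2.79 ± 0.15). Vamp1, the other neuronal synaptobrevin, was also lower in D6RA (16.7 ± 1.0 CPM) than in D6DMSO (31.3 ± 1.7 CPM). Of the 4 other Vamp genes measured, 3 fell and 0 rose with RA at day 6, where 33.1% of all genes were lower and 32.6% higher. Snap29 and Snap47 rose.

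Syp encodes synaptophysin. It was at 14.1, 14.3 and 12.8 CPM in D3RA, against 3.45, 2.26 and 4.96 CPM in D3DMSO. It was at 39.6, 38.0 and 41.1 CPM in D6RA, against 1.10, 1.22 and 1.31 CPM in D6DMSO. The groups of each day did not overlap, and the mean with RA was 3.87 times that with DMSO at day 3 (adjusted p = 0.000122) and 32.7 times at day 6 (log2 5.01 ± 0.36, adjusted p = 1.82e-09). D0 libraries had 1.44, 0.472 and 1.99 CPM and overlapped those of D6DMSO. Syp was higher than in D0 in both day 3 groups, by 3.55 ± 0.36 on the log2 scale in D3RA (adjusted p = 1.54e-07) and 1.55 ± 0.36 in D3DMSO (adjusted p = 0.00142). Without D0 replicate 2, the D3DMSO value was 1.00. In D6DMSO Syp was lower than in D3DMSO (log2 -1.50 ± 0.36, adjusted p = 0.00188). That call was lost on thinning (adjusted p = 0.0764), and over 15 alternatives the adjusted p ran from 0.000317 to 0.0764.

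Syn1 encodes synapsin I, a phosphoprotein that clusters vesicles away from the release site. It was not called in any comparison among D0 and day 3 cells. It was at 1.55, 2.61 and 4.11 CPM in D3RA, against 0.829, 3.08 and 1.70 CPM in D3DMSO, and D0 libraries had 1.03, 2.36 and 2.84 CPM. These groups overlapped, and none of the differences between them was called (D3RA against D3DMSO: log2 0.64, 95% interval -0.29 to 1.56, adjusted p = 0.219). The D3RA group held 34 counts of Syn1 over 3 libraries and the D3DMSO group 32. Without D3DMSO replicate 2 the day 3 difference was called (log2 1.08, adjusted p = 0.0437), and on thinning it turned in sign (-0.13, 0.863), the highest adjusted p of 16 alternatives. Syn1 reached 13.7, 13.4 and 13.3 CPM in D6RA, against 2.41, 2.94 and 3.15 CPM in D6DMSO. The groups stood apart (log2 2.25 ± 0.44, adjusted p = 0.000233).

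The promoter of Syn1 is shown because it is known as a target of the repressor REST, which binds the RE1 element of neuronal genes in non-neuronal cells. It is set beside those of Syp and Rab3c, which were called higher in D3RA than in D3DMSO. No window was at hand for Vamp2, the other gene not called there. RefSeq promoter windows (GRCm38.p6, 250 bases before to 50 after the start) were at hand for 6 of the 9 genes, in 8 windows. Capitals mark matches, on either strand, to the consensus of RE1 (21 letters, 19 of them fixed, with up to 2 mismatches), to the cAMP response element TGACGTCA and to the GC box GGGCGG. No 2 marked matches overlap.
Syn1, chrX:20920869-20921168, minus strand: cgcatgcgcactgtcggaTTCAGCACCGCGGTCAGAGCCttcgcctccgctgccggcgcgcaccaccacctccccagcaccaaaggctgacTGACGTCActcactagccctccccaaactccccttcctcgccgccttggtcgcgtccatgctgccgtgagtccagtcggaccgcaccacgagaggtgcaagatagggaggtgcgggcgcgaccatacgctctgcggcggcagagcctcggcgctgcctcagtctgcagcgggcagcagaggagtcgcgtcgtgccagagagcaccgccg
Syp, chrX:7638330-7638629, plus strand: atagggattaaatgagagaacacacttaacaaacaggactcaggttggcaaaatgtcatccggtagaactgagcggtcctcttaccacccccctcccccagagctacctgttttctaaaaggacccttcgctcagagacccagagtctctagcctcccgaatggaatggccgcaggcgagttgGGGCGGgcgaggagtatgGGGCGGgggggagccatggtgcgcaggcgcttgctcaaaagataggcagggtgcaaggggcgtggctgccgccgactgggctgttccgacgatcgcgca
Rab3c, chr13:110280157-110280456, minus strand: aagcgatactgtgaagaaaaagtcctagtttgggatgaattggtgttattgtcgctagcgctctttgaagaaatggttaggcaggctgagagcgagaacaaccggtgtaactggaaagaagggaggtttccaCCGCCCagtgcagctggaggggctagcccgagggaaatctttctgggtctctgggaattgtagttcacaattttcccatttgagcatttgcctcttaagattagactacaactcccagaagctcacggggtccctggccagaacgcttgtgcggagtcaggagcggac

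Syn1 had a match to RE1 beginning 232 bases before its start, at chrX:20921130-20921150, which differs from the searched letters by A14T and C18A (consensus letter, position from 1 at the 5′ end of the consensus, Syn1 letter). Such a match was found in 10 of all 32851 promoter windows (0.0304%). In the other 7 windows of these genes the closest stretch had 6 to 9 mismatches. Syn1 also held TGACGTCA, found in 1.79% of all windows, 159 bases before the start. GGGCGG, found in 35.7% of all windows, was present at Syp, Rab3c, Syt1, Syt11 and Rab3a. These are matches of letters and not measured binding, and a window without a match says only that these letters are not in it. Rest itself, on a list of 4 regulators of which 1 was higher and 1 lower with RA at each day, had 91.3 ± 13 CPM in D3RA and 212 ± 12 CPM in D3DMSO (log2 -1.22 ± 0.08, adjusted p = 2.09e-09; SD, n = 3 each). At day 6 it was at 72.6 ± 1.1 CPM in D6RA and 201 ± 11 CPM in D6DMSO (log2 -1.47 ± 0.08, adjusted p = 1.23e-10), and D0 cells had 321 ± 11 CPM. A part of Rest in the levels of Syn1 or of the other genes was not tested.

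The other synapsins, Syn2 and Syn3, were called higher with RA at day 6 and not at day 3. Syn2 was lower in D3RA (1.83 ± 0.50 CPM) than in D3DMSO (4.09 ± 0.53 CPM) and higher in D6RA (9.79 ± 0.74 CPM) than in D6DMSO (5.20 ± 0.10 CPM). Between treatments Syn3 was not called at day 3 (log2 0.51 ± 0.39). It was at 8.51 ± 0.77 CPM in D6RA and 2.26 ± 0.80 CPM in D6DMSO, and its change of difference between the days was called (log2 1.44 ± 0.56, adjusted p = 0.0414).

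Rab3a encodes the main Rab3 GTPase of brain synapses. It was at 7.65, 7.17 and 6.39 CPM in D3RA, against 4.83, 3.90 and 4.34 CPM in D3DMSO. In older cells it was at 43.1, 40.8 and 40.7 CPM in D6RA, against 5.39, 5.54 and 4.68 CPM in D6DMSO. The groups of each day stood apart, by 0.70 ± 0.17 on the log2 scale at day 3 (adjusted p = 0.00193) and 2.99 ± 0.17 at day 6 (adjusted p = 1.12e-10). D0 libraries were lowest, at 2.05, 1.42 and 1.32 CPM, and both D3RA (log2 2.15 ± 0.17) and D3DMSO (1.44 ± 0.17) were higher (adjusted p = 9.72e-09 and 2.33e-06). D6DMSO overlapped D3DMSO and was not called against it (log2 0.24, 95% interval -0.13 to 0.60, adjusted p = 0.251).

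Rab3c encodes a close relative of Rab3a. It had the widest range of the 9 genes in CPM ratio between groups. The D0 libraries held 1 count in all, with 0 counts in 2 of them. It was at 9.56, 12.1 and 7.76 CPM in D3RA, against 2.76, 1.64 and 2.01 CPM in D3DMSO. Day 6 levels were 119.8, 105.1 and 106.2 CPM in D6RA, against 0.307, 0.0840 and 0.0875 CPM in D6DMSO, a group total of 9578 counts against 11. The log2 fold change of RA over DMSO was 2.17 ± 0.44 at day 3 (adjusted p = 0.00043) and 9.47 ± 0.44 at day 6 (adjusted p = 8.08e-12). Relative to the single count of D0, the ratio of summed counts was 261 in D3RA (95% counting interval 46.2 to 10384) and 58.9 in D3DMSO (10.0 to 2383). Those intervals cover counting error only. The D3DMSO gain did not last, since Rab3c was lower in D6DMSO than in D3DMSO by 3.81 on the log2 scale (SE 0.44, adjusted p = 2.23e-06). The other Rab3 genes, Rab3b and Rab3d, were not called between the treatments at day 3 and rose with RA at day 6. Rab3b was at 8.20 ± 0.67 CPM in D6RA and 1.71 ± 0.29 CPM in D6DMSO. Rab3d was at 7.55 ± 0.62 CPM in D6RA and 3.92 ± 0.34 CPM in D6DMSO.

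**Figure D2:**
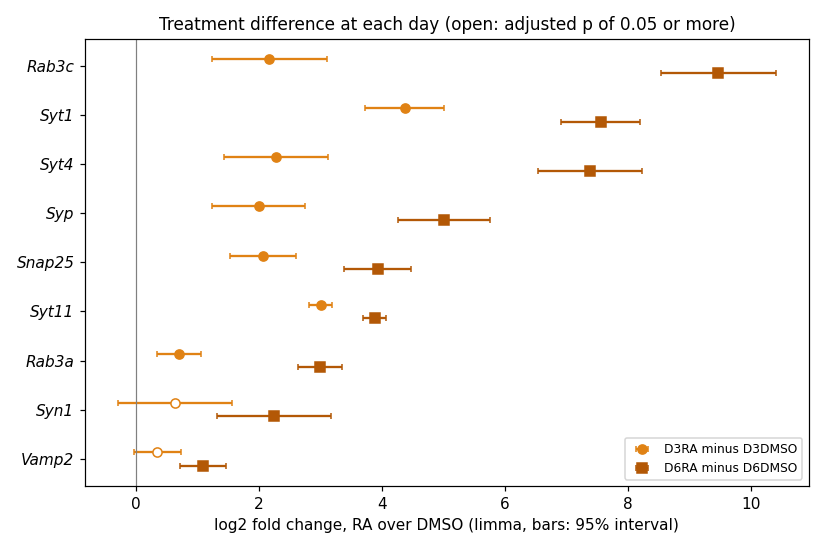
Log2 fold change of RA over DMSO from limma, with 95% intervals, for the 9 genes at day 3 (circles) and day 6 (squares). Open symbols were not called. Every square lies right of its circle, and the day 6 values run from 1.09 for Vamp2 to 9.47 for Rab3c.

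Whether the treatment difference itself changed between the days was tested by the interaction, the D6RA minus D6DMSO difference less the D3RA minus D3DMSO difference. It was positive and called for all 9 genes, where 25.4% of all genes were called in that direction and 23.1% in the other. The rise was 7.30 ± 0.62 for Rab3c, 5.11 ± 0.56 for Syt4, 3.19 ± 0.43 for Syt1 and 3.01 ± 0.50 for Syp on the log2 scale (adjusted p = 7.18e-08, 1.33e-06, 1.27e-05 and 0.000111). It was smallest for Vamp2 (0.74 ± 0.25, adjusted p = 0.0237) and Syt11 (0.88 ± 0.13, adjusted p = 2.53e-05). The calls for Syn1 (1.61 ± 0.62, adjusted p = 0.0403) and Vamp2 were fragile. Syn1 lost its call under 13 of 21 alternatives (adjusted p from 0.00635 to 0.113) and Vamp2 under 5 of 21 (0.00581 to 0.115), among them in both cases quantile normalization, thinning and leaving out D3DMSO replicate 2. On thinning the Syt4 value was 3.20.

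Along the RA route the genes rose in 2 steps. In D3RA against D0 7 of 9 rose and none fell, where 35.0% of all genes were called higher and 33.9% lower. In D6RA against D3RA all 9 rose, where 37.2% were called higher and 32.0% lower. Their median log2 fold change was 1.85 in the first step and 2.31 in the second, against 0.01 and 0.07 over all genes. The second step ran from 1.12 ± 0.09 for Syt11 to 3.49 ± 0.44 for Rab3c. Rab3a, for instance, averaged 41.5 ± 1.3 CPM in D6RA and 7.07 ± 0.63 CPM in D3RA (log2 2.53 ± 0.17, adjusted p = 2.43e-09). Syp lost its call in that step on thinning (adjusted p = 0.0925, the highest of 15 alternatives), with a log2 fold change of 1.47 there and 1.51 without thinning. The D3RA and D3DMSO comparisons share their D0 libraries, and both D6 comparisons rest on the deeper D6 libraries.

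Along the DMSO route the genes did not all move one way. In D3DMSO against D0 4 genes rose (Rab3c, Syp, Rab3a and Vamp2) and 3 fell (Syt1, Syt4 and Syt11), where 28.2% of all genes were called higher and 27.8% lower. Snap25 and Syn1 were not called. In D6DMSO against D3DMSO 2 rose and 4 fell, where 28.3% of all genes were called higher and 28.1% lower. Vamp2 was the clear gain. Syt11 was called at 0.24 ± 0.09 on the log2 scale (adjusted p = 0.0311), a call lost under 6 of 15 alternatives (adjusted p up to 0.175). Rab3c, Syt4, Syp and Syt1 fell. Without D6DMSO replicate 3, Syt1 fell by 0.79 on the log2 scale in place of 1.27. On thinning, which leaves few counts of these genes in DMSO cells, 2 of the 9 genes were called in this comparison, and Syt4 (log2 -0.41, adjusted p = 0.621) and Syt1 (-0.83, 0.131) were not. Over 15 alternatives the lowest adjusted p was 4.63e-06 for Syt4 and 0.000375 for Syt1.

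**Figure D3:**
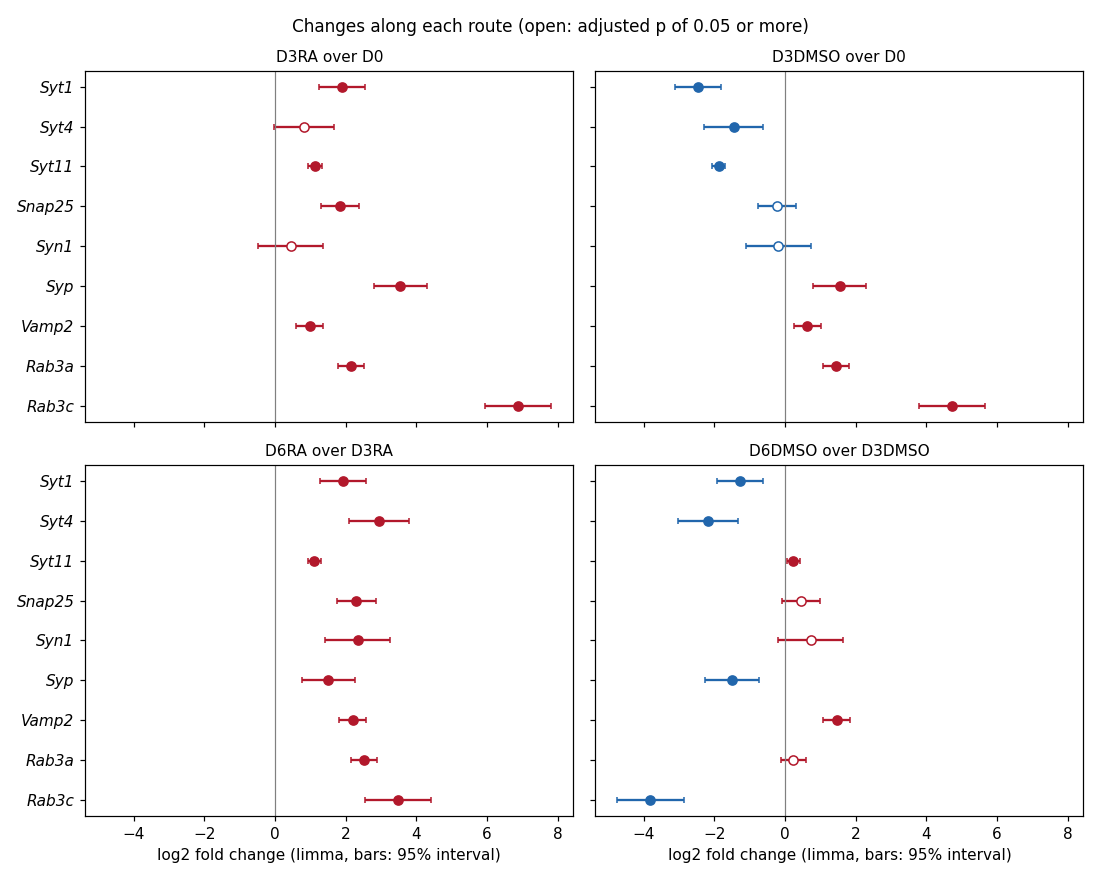
Log2 fold changes with 95% intervals from limma for D3RA over D0, D3DMSO over D0, D6RA over D3RA and D6DMSO over D3DMSO, red above 0 and blue below, open where not called. The RA panels hold no blue point, while the DMSO panels hold both colours, and the Rab3c values against D0 rest on 1 count in D0.

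Of 90 other synaptic vesicle and release genes on a list written from general knowledge, 76 were measured. That list too was chosen with earlier results of these data known. In D6RA against D6DMSO 48 were called higher, 20 lower and 8 were not called, with a median log2 fold change of 1.29, where 32.6% of all genes were called higher and 33.1% lower. In D3RA against D3DMSO 31 were higher, 20 lower and 25 not called, with a median of 0.07, where 30.7% of all genes were higher and 31.4% lower. The interaction was called higher for 47 and lower for 10, where 25.4% of all genes were higher and 23.1% lower. The median of the 9 genes described here was 3.93 at day 6 and 2.07 at day 3. The difference between the lists was not tested.

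Slc17a6 and Slc32a1, which encode loaders of transmitter into vesicles, had the highest fold changes of the list at day 6. Slc17a6 (the glutamate transporter VGLUT2) was at 31.7 ± 4.5 CPM in D6RA and 0.0871 ± 0.12 CPM in D6DMSO (log2 8.83 ± 0.67, adjusted p = 4.62e-09). Slc32a1 (the GABA and glycine transporter VGAT) was at 16.1 ± 1.8 CPM in D6RA and 0.101 ± 0.026 CPM in D6DMSO (log2 7.05 ± 0.57, adjusted p = 9.01e-09). The list's other measured loaders, of monoamines, were named after their values were seen. Slc18a2 (VMAT2) was lower in D6RA (7.58 ± 0.66 CPM) than in D6DMSO (10.3 ± 0.76 CPM), and Slc18a1 (VMAT1) was not called (2.09 ± 0.25 CPM in D6RA and 1.71 ± 0.49 CPM in D6DMSO). Slc32a1 was also among the 3 highest at day 3, with 29 counts in D3RA and 1 in D3DMSO, a ratio of 33.2 (95% counting interval 5.50 to 1354). Sncg, which encodes gamma-synuclein, had 86 counts in D3RA and 0 in D3DMSO. Set against a floor of 3 counts over the D3DMSO group, it was at least 32.8-fold higher in D3RA. At day 6 it was at 14.8 ± 1.5 CPM in D6RA and 0.246 ± 0.071 CPM in D6DMSO. Cadps, which encodes the vesicle priming factor CAPS1, reached 52.0 ± 2.2 CPM in D3RA, against 4.67 ± 1.1 CPM in D3DMSO (log2 3.48 ± 0.15, adjusted p = 7.59e-12).

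At the other end, Amph and Rab27a were lower with RA at both days. Amph encodes amphiphysin, an endocytic adaptor, with 6.53 ± 1.3 CPM in D3RA against 60.1 ± 4.8 CPM in D3DMSO, and 20.4 ± 1.1 CPM in D6RA and 113 ± 13 CPM in D6DMSO (log2 -3.18 ± 0.12 and -2.47 ± 0.12). Rab27a, a GTPase of secretory granules, had 1.48 ± 0.98 CPM in D3RA against 7.33 ± 0.88 CPM in D3DMSO, and 0.433 ± 0.058 CPM in D6RA and 3.19 ± 0.36 CPM in D6DMSO. Rimbp2, which encodes an active-zone linker to calcium channels, was lower with RA at day 3 (log2 -2.81 ± 0.40) and higher at day 6 (1.98 ± 0.40).

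**Figure D4:**
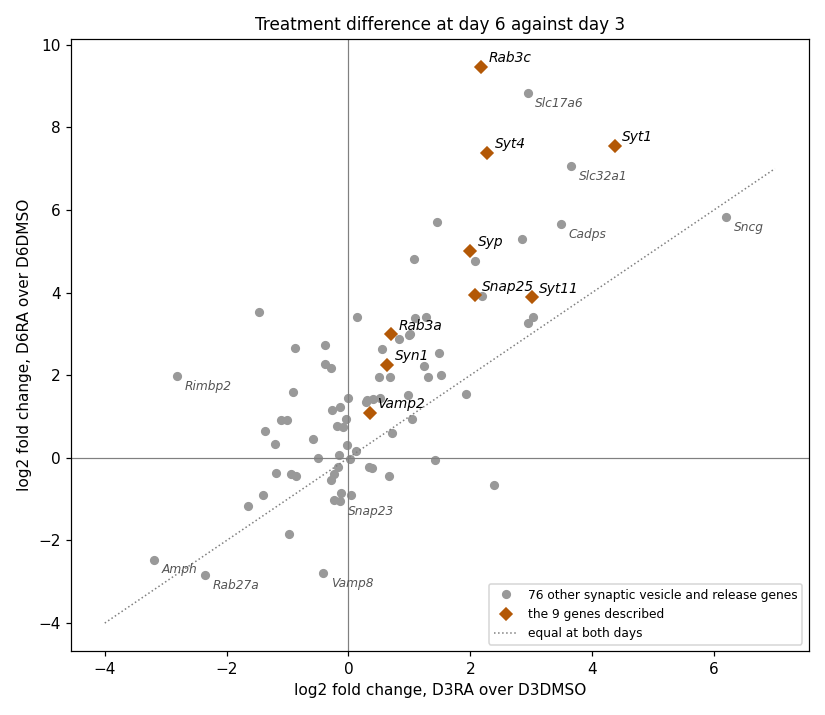
Log2 fold change of D6RA over D6DMSO (vertical) against that of D3RA over D3DMSO (horizontal) for the 9 genes described (diamonds) and 76 other synaptic vesicle and release genes (grey circles), with a dotted line where both days are equal. The 9 diamonds all lie above that line, between 1.09 and 9.47 at day 6, while Amph and Rab27a lie below 0 on both axes.

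Across the 15 libraries, which differ in depth and share the gap between D6RA and the rest, the 36 pairs of the 9 genes had Pearson correlations of log2 values from 0.33 to 0.97, with a median of 0.79. The highest was that of Syt1 with Syt11 and the lowest that of Syt1 with Vamp2. Among 12499 named genes of at least 1 CPM, Plcxd3, Insm1 and Bmpr1b were most like Syt1 (r = 0.99 for each). For Syt4 these were Sbk1, Bcl11a and Ina (r = 0.98 for each), and for Syt11 Wscd1, Scrn1 and Pfn2 (0.99 for each). Snap25 was most like Erbb4, Nol4 and Gpr137b (0.99 for each), and Vamp2 most like Rnf214, Myo9a and Ncoa1 (0.99, 0.98 and 0.98). The genes nearest to Syp were Slc37a1, Ap3b2 and Zfp60 (0.99, 0.98 and 0.98) and those nearest to Syn1 were Amigo3, Dusp18 and Grb2 (0.96, 0.95 and 0.95). Rab3a was most like Kidins220, Tmx4 and Madd (0.99 for each) and Rab3c most like Dner, Ndfip1 and Osbpl9 (0.99 for each).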

How the data were processed

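RNA was measured in 15 libraries of P19 cells, grouped by treatment and day in the sample titles. Per the labels' protocols, libraries were made with a stranded total RNA kit with ribosomal RNA depletion and sequenced single end. Per the submitters' processing notes, limma, edgeR, featureCounts, STAR 2.6.0c and Trimmomatic 0.32 were among the tools and mm9 was the genome, without a statement of which of them made the table. The deposited log2 values of 14717 Ensembl IDs (14228 matched to a symbol, 489 not) run from 1.0 to 26.7. Undoing the log2, scaling each library by its lowest value and taking off 0.5 gave whole numbers for 100% of values (within 0.05). These served as counts. At like depth, the 0.5 makes fold changes of genes with few counts smaller, which need not hold between libraries of unlike depth. CPM used library sizes in the ratio of the deposited scale (2.19 to 31.9 M), and a geometric mean equal to that of counts outside mitochondrial genes.

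Groups were compared with limma 3.58.1 (R 4.3.3) with a variance trend on the deposited log2 values, no filter, 1 coefficient per group and 10 residual degrees of freedom. Python 3.11.15 made the tables and figures. The 6 comparisons and 1 interaction were adjusted by Benjamini-Hochberg over all genes. The script was tested on simulated data. The members and lists were chosen with earlier results of these data known. Beside the 9 genes, the text names listed genes by a rule: their families (Syt, Syn, Rab3, Vamp, Snap), per day the 3 most raised and the 3 most lowered called genes at 1 CPM or more, and per gene the 3 genes most correlated with it. Replicate numbers are not stated to pair libraries. Alternatives were other scalings, filters, variance models, subsets of samples, a replicate block, thinning to 2189364 counts and leaving out each library. A fit without the D6 libraries was chosen after seeing the data.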

Additional observations from a re-analysis of the deposited data

Results flagged for a closer look

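For all 9 genes the RA minus DMSO difference was not the same at day 6 as at day 3, by the interaction term of limma with Benjamini-Hochberg adjustment. Of all 14717 genes, 25.4% were called in the same direction. The change of the difference was 3.19 (log2) for Syt1, 5.11 for Syt4, 0.877 for Syt11, 1.86 for Snap25, 1.61 for Syn1, 3.01 for Syp, 0.740 for Vamp2, 2.29 for Rab3a and 7.30 for Rab3c. The 2 days differ in more than time, since D6 libraries were deeper and held mitochondrial counts. The interaction sets differences within each day against each other. On thinning to the smallest library 7 of the 9 genes were called. The 2 others had values of 1.66 (Syn1) and 0.89 (Vamp2) there, against 1.61 and 0.740 without thinning. Both also lost their call under other alternatives, as given above. The Syt4 value was 3.20 on thinning, against 5.11 without it.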

How the results depend on the processing

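The 9 genes were refitted under each alternative, 1026 values of gene, comparison and setting in all. Of these 981 were on the same side of the threshold with the same sign, 30 lost their call, 10 gained one and 5 turned in sign. The 5 were of values not called: Snap25 in D3DMSO against D0 without D3DMSO replicate 2 (log2 0.089), Syn1 in the same comparison without D0 replicate 3 (0.086) or D3DMSO replicate 1 (0.28), and Syn1 on thinning in D3RA against D0 (-0.22) and D3RA against D3DMSO (-0.13). The cause was not tested.

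The count of genes called moved by over 1.5 times in 1 case, D6DMSO against D3DMSO, at 2 of 9 on thinning to the smallest library. Of the 76 other vesicle and release genes, 31 were called in that comparison on thinning, against 29 higher and 24 lower without it. Over all 14717 genes the count was 5903 on thinning and 8302 without it. Leaving out 1 library, the counts were 9 to 9 in D6RA against D6DMSO, 9 to 9 in D6RA against D3RA, 7 to 9 in D3RA against D3DMSO, 7 to 7 in D3RA against D0, 7 to 7 in D3DMSO against D0, 5 to 6 in D6DMSO against D3DMSO and 7 to 9 in the interaction. With a replicate block, 8 genes were called in D3RA against D3DMSO (Vamp2 added, adjusted p = 0.0390) and 8 in D3RA against D0 (Syt4 added, 0.0399), and the other counts did not change. Same-numbered libraries of different groups had correlations of deviations from -0.15 to 0.21, and differently numbered ones from -0.16 to 0.16. Among the D0 and D3 libraries the same-numbered values were all positive, from 0.02 to 0.21. The differently numbered ones there ran from -0.16 to 0.07. Every negative same-numbered value involved a D6 library. The numbers were not taken as pairs outside the replicate block, and whether they mark pairs was not tested. Quantile normalization moved the median of all genes by -0.13 in D6RA against D3RA. All 9 genes were called higher there in that setting. With replicates left out in turn, the log2 fold change in D3DMSO against D0 ran from -0.42 to 0.09 for Snap25 and from -0.63 to 0.28 for Syn1. Few counts stood behind the low genes: Syp and Rab3c held 1 to 84 counts per group in D0, D3DMSO and D6DMSO. Syt1 held 24 counts in D3DMSO and 41 in D6DMSO, and Syt4 held 26 and 24. In D0 and D3DMSO, Syn1 held 55 and 32 counts, Rab3a 43 and 82, and Snap25 82 and 53.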
